A study of Caenorhabditis elegans with 2 samples.

Results

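The genes described here are the cuticle collagen genes of Caenorhabditis elegans that carry a col name, examined for binding by the transcription factor APTF-2. Members were all protein-coding genes of the Ensembl annotation of assembly WBcel235 whose name is col- followed by a number. This gave 156 of 19973 protein-coding genes on the 6 nuclear chromosomes. The assay was ChIP-seq: sonicated chromatin is pulled down through the tagged protein, and the DNA that comes with it is sequenced. There was 1 group of 2 biological replicates, with 1 technical replicate each: whole young adults of strain RW12304, 61.5 h old, synchronised as starved first-stage larvae after bleaching. Both carried the allele st12304[aptf-2::TY1::EGFP::3xFLAG] on chromosome IV, made with CRISPR, so that APTF-2 itself bears the tag, and the antibody was directed against GFP. A library without the tag was not analysed here, so a peak means enrichment in this precipitation. Whole animals mix all tissues, and a site bound in few cells cannot be told apart from a site bound weakly in many.

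The cuticle is the worm's outer coat, secreted by the epidermis and renewed at each moult. Most of it is collagen, made from short chains with repeats of glycine and other residues that are trimmed, hydroxylated, assembled in threes and cross-linked outside the cell. The col genes encode most of these chains and are known for transcription in waves during each moulting cycle and for adult-specific members such as col-19. APTF-2 belongs to the AP-2 family and is known from embryos, where it is needed for morphogenesis of the epidermis, the tissue that makes the cuticle. The name alone does not make a cuticle gene: col-99 encodes a transmembrane collagen of neurons and other cells, and it was kept because the choice was made by name.

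The deposited peak lists carry for each peak a signal, whose scale is not stated, and an IDR score, which grows with the reproducibility of a peak between paired lists. A score of 830, the lowest in the thresholded lists, stands for a global irreproducible discovery rate of 0.01. The main list was the authors' conservative list from both replicates (892 peaks, median signal 103). The ranked list behind it held 94866 peaks without that limit. Its highest signal was 2409, against 950 in the main list, so the strongest ranked peak is missing from the main list. Around every annotated start of a gene, 1000 bp upstream and 200 bp downstream formed its window, and a gene was counted as bound when a main-list summit lay in its window. Its ranked signal was the highest signal of a ranked-list summit there, or 0 without one. Sequencing depth is unknown, and the 95% Wilson intervals below cover counting of genes only.

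Of the 156 col genes, 2 were bound (1.28%, interval 0.352 to 4.55%), namely col-71 and col-63. Among all protein-coding genes 629 were bound, or 3.15%. The share in the col genes was lower than this background, but its interval included it, so a difference was not detectable with 156 genes. In the replicates' own thresholded lists no col gene had a summit in its window (0 of 156 in each list, interval up to 2.4%), against 1.46% of all genes in replicate 1 and 1.7% in replicate 2. The other thresholded list from both replicates held a summit at col-71 alone (0.641%, interval 0.113 to 3.54%), against 3.07% of all genes.

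The strongest summit within a col gene's window was at col-71 (WBGene00000647, chromosome II, 3500077 to 3502570, minus strand). Its peak on ce11 lay at 3502697 to 3502992, between protein-coding genes, with the summit 275 bp upstream of the col-71 start. The divergent neighbour Y49F6B.2 was closer, with its start 123 bp from the summit, so the peak stands in the windows of both genes and cannot be given to one of them. The peak had a signal of 84.2 and an IDR score of 1000. In the own ranked lists of replicates 1 and 2 the highest signals were 47.3 and 44.6, and their summits lay within 100 bp of each other. Within the main list the peak was a weak one: 695 of the 892 peaks were stronger. The 201 bases around the summit are printed below because this is the main-list summit in a col gene's window whose sequence can be shown. They run on the col-71 strand, from chrII:3502745-3502945 of the RefSeq copy of WBcel235, with matches to the motifs described further on in capitals.
col-71 summit: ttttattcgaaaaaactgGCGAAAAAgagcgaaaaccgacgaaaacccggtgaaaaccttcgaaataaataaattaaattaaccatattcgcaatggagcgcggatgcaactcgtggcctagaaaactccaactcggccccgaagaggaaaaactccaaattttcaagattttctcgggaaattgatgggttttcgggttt

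The capitals in this stretch are a match to the E2F-like motif TTTNNCGC on the opposite strand, starting at base 19. The AP-2 palindromes, the GATA core and the TATA-like element described further on had 0 matches in these letters.

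The second bound gene was col-63 (WBGene00000639, chromosome I, 8243694 to 8244963, minus strand), one of the collagens enriched in adults. Its peak lay at 8245542 to 8245837, with the summit 727 bp upstream of the col-63 start and inside an untranslated exon of the neighbouring homeobox gene ceh-8. A non-coding RNA gene, ZK265.11, lay within 200 bp of the summit. No start of another protein-coding gene was nearer than that of col-63. The peak had a signal of 82.3 and an IDR score of 951, and the replicates' own ranked lists gave 41.1 and 44.5. In the main list 729 of 892 peaks were stronger. The peak was missing from the other thresholded list, and neither the col-63 peak nor that of col-71 overlapped a thresholded peak of either replicate. Of the 629 bound genes in all, 253 (40.2%) likewise had no summit in either replicate's own thresholded list.

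Below the limit, the col gene with the highest signal was col-129 on chromosome IV, with a ranked signal of 72.8 and an IDR score of 708, equal to a global rate of 0.0196. Its summit lay at 12109473 in its own coding sequence, 138 bp downstream of a start, and the replicates gave 34.1 and 38.1. Nearest to the limit by IDR score was col-39 on chromosome II, with a score of 725 and a signal of 47.6 at a summit in a coding exon 788 bp upstream of the start. This peak, at 10703980 to 10704275, lay within the neighbouring gene col-79 (10703613 to 10704572). The replicates' highest signals in the col-39 window were 43.1, at 852 bp upstream, and 32.1, at 600 bp upstream. The last in this range was col-45 on chromosome I, with an IDR score of 557 and a signal of 52.8, in a coding exon 199 bp downstream of a start. The replicates' highest signals in its window were 25, at 685 bp upstream, and 32.1, at 106 bp downstream. With the bound pair, 5 of 156 col genes (3.21%) held a ranked-list summit with an IDR score of 540 or more, which stands for a rate of 0.05, against 5.3% of all protein-coding genes.

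Main-list summits near col genes but outside the windows were few. At col-85 on chromosome II a peak of signal 91.1 had its summit 329 bp downstream of the start, in exons of non-coding genes or pseudogenes. At col-94 on chromosome III the summit lay 1872 bp upstream, in an exon of R07E5.16, with a signal of 131; this peak overlapped a thresholded peak in both replicates, unlike the others named here. The gene col-103 on chromosome IV had a pair of summits in its own coding exon, 850 and 627 bp downstream of its start, with signals of 83 and 2.59 and IDR scores of 850 and 849. In all, 5 of 156 col genes (3.21%) had a main-list summit within 2000 bp of a start on either side, against 5.07% of other protein-coding genes. The median distance to the nearest main-list summit was 48756 bp for col genes and 46311 bp for other genes.

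The ranked list covered more of the family, but it has no limit on reproducibility. The highest-signal peaks of the listed col genes had a median IDR score of 78, which stands for a global rate of 0.649. A ranked-list summit is therefore not taken as a bound site. A ranked-list summit was found in the window of 108 col genes (69.2%, interval 61.6 to 75.9%), against 75.1% of all protein-coding genes, and 48 had none. Median ranked signal over the 156 genes was 25.8, with quartiles of 0 and 38.9. For the 19817 other genes the median was 29.2 and the quartiles 3.56 and 42.2. The median percentile of the col genes among all protein-coding genes was 43.4. The 10% of genes with the highest signal held 7 col genes (4.49%, interval 2.19 to 8.97%), against 10% of all genes by construction. Among genes with a listed summit the medians were closer, at 33.6 for col genes and 35.3 for other genes.

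**Figure D1:**
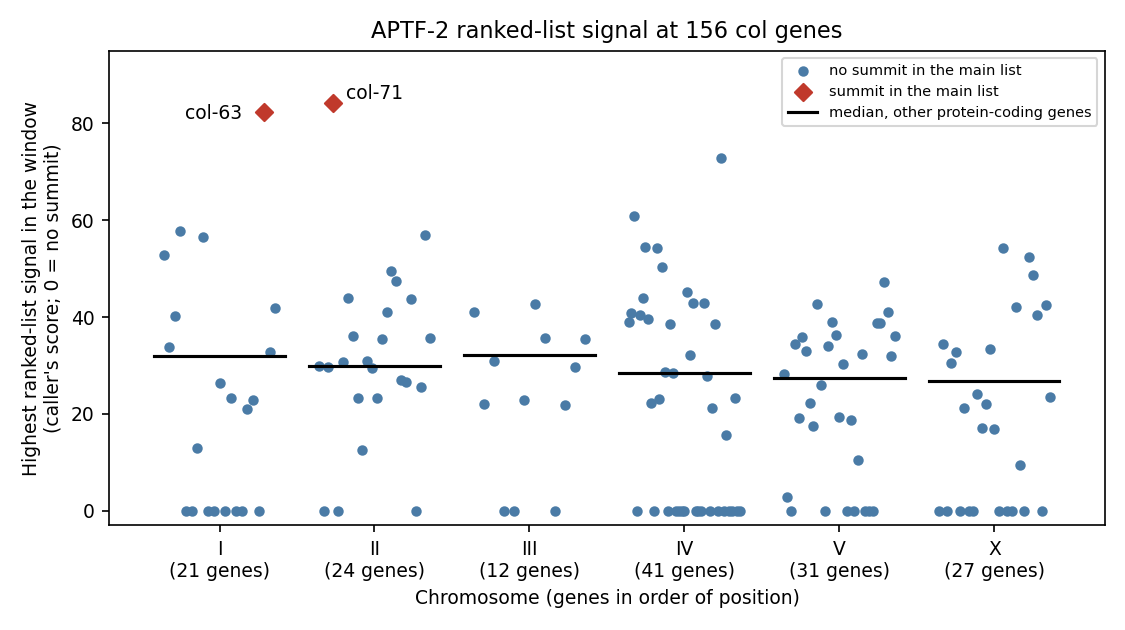
Highest ranked-list signal in the window (vertical axis, the caller's score, 0 where no summit was listed) of each of the 156 col genes, set out by chromosome and, within it, by position. Diamonds are the 2 bound genes at 84.2 and 82.3, circles the other members, and black lines the medians of the other protein-coding genes, from 26.9 on X to 32.1 on III.

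Window size differed between the groups, and its part in this result was not tested. A single start was annotated for 136 of 156 col genes (87.2%) and for 73.6% of other genes, so that the joined windows averaged 1266 bp and 1454 bp. Ranked-list summits numbered 0.952 per kb of window in col genes and 1 per kb in other genes. When genes with 1 start were compared, a check added after the values above were seen, the median ranked signal was 23.3 for 136 col genes and 26.5 for 14587 others. Shares with a ranked-list summit were then 67.6% (interval 59.4 to 74.9%) and 71.6%, and bound shares 1.47% and 2.58%. Of the 1-start col genes, 4 were in the 10% of highest signal among all genes (2.94%), against 7.99% of the 1-start other genes.

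The order of the ranked signals turned around under 1 other way to tie peaks to genes, which also reaches farther from the start. In windows reaching 2000 bp upstream the order did not turn around, with medians of 33.9 for col genes and 36.4 for other genes. When each ranked-list summit was given to its nearest start within 2000 bp, 89.7% of col genes and 87.6% of other genes received one, the median ranked signal of col genes was 40.7 against 38, and 23 col genes were among the 10% of highest signal. By the same rule 4 col genes were bound (2.56%, against 3.16% of other genes): col-63, col-85, col-94 and col-103, with col-71 given to its neighbour. Restricted to windows that overlap no other gene's window, 104 col genes had a median ranked signal of 26.7 and other genes 27.7, and the shares with a ranked-list summit were 73.1% and 72.8%.

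**Figure D2:**
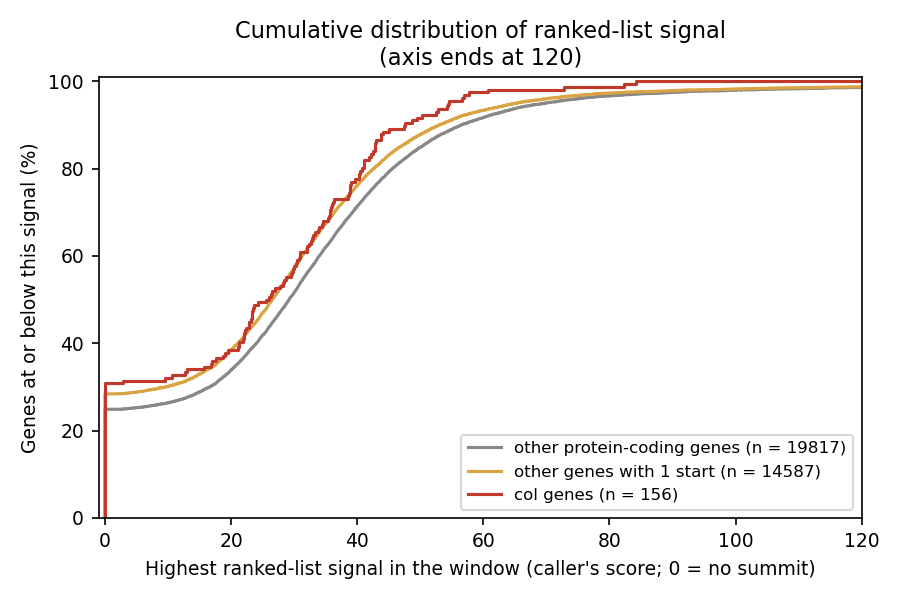
Share of genes (vertical axis, %) whose highest ranked-list signal is at or below the value on the horizontal axis (the caller's score, shown to 120), for 156 col genes, 19817 other protein-coding genes and the 14587 of these with 1 start. The line of the col genes lies above that of all other genes over most of the range and nearer to that of genes with 1 start, and it ends at 84.2. The col line includes members with several starts. With 1 start only, the medians were 23.3 for 136 col genes and 26.5 for other genes.

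The 10 col genes of highest ranked signal ran from 84.2 down to 54.3. After col-71, col-63 and col-129 came col-102 on chromosome IV, with a ranked signal of 60.8 and replicate signals of 27.1 and 33.1. Its summit lay 407 bp upstream of the start, between genes, and 394 bp from the start of prmt-4, a protein arginine methyltransferase gene. The IDR score was 408. At col-48 (signal 57.7) the summit lay in an intron of mek-2, a MAP kinase kinase gene, 365 bp upstream of the col-48 start. The replicates gave 34.5 and 46.2 there, but at different places in the window, 98 bp downstream and 381 bp upstream.

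The others were col-86 (56.9), col-52 (56.6), col-106 (54.5), col-34 (54.3) and col-178 (54.3). Of these, col-86 and col-106 had the summit in their own coding exons, 81 and 97 bp downstream of a start, and col-178 had it in its own intron, 89 bp downstream. In col-52 it lay in an intron of the gene, and the window had 639 similar stretches elsewhere in the genome, so reads there could come from other copies. Over the 10 genes, 4 had the summit downstream of a start and 3 in their own coding exons. Of other genes with a listed summit of any signal, 19.2% and 13.2% did. The replicates placed their highest summits within 100 bp of each other in 7 of the 10. Among other genes listed by both replicates, of any signal, 45.3% did. The 10 were chosen by signal in the list from both replicates, which can favour such agreement, so this count is a description only.

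The windows around the summits of col-102 and col-34 are printed because, among the 10 genes of highest ranked signal, they are the upstream summits between protein-coding genes that fall short of the main list. Both are 201 bases long and run on the strand of the col gene, from chrIV:603937-604137 (plus strand) and chrIV:4245164-4245364 (minus strand) of WBcel235, with motif matches in capitals.
col-102 summit: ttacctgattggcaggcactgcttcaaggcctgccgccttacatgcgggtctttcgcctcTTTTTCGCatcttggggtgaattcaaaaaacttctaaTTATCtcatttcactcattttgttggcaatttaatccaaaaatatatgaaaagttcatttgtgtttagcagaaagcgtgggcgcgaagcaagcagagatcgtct
col-34 summit: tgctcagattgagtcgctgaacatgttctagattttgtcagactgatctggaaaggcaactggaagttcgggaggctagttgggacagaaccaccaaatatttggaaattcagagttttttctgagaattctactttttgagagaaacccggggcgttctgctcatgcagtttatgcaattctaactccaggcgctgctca

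At col-102 the capitals mark an E2F-like match on the gene's strand and a GATAA match on the other strand. At col-34 no motif matched. GC content was 42.3% and 44.3% in these windows, and 40.8% in that of col-71.

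Replicate agreement was checked in the replicates' own ranked lists. A summit was listed in the window by both replicates for 53 col genes (34%, interval 27 to 41.7%), against 38.8% of all genes. Replicate 1 alone listed one for 24, replicate 2 alone for 28, and neither for 51. Among the 19817 other protein-coding genes the same counts were 3633, 3230 and 5266. By replicate, 77 col genes (49.4%, against 57.1% of all genes) and 81 (51.9%, against 55.1%) had a summit. Over the 53 genes the signals had a Spearman correlation of 0.438 and a Pearson correlation of 0.46 on the log2 scale. Over 7688 other genes these were 0.387 and 0.556. Genes share libraries and neighbouring windows, so these correlations are a description.

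The place of the summit was compared as well, as its distance from the nearest start whose window held it. In genes with several starts the distances of the replicates can refer to different starts. Their difference then need not be the distance between the summits. The replicates' highest summits lay within 100 bp of each other in 12 of the 53 col genes (22.6%, interval 13.5 to 35.5%), against 45.3% of the 7688 other genes. By this measure the median gap was 329 bp in col genes and 124 bp in other genes, over genes with any number of starts. With 1 start only, the shares were 11 of 46 (23.9%) and 47.5%. The 12 members were col-71, col-63, col-129, col-102, col-106, col-34, col-178, col-185, col-78, col-99, col-144 and col-76, with ranked signals from 84.2 at col-71 to 29.5 at col-76. Of these, col-129 had 2 annotated starts and the others 1. A few members were high in 1 replicate alone. The highest of these was col-157, with 48.6 in replicate 2, no summit in replicate 1 and none in the ranked list from both. The highest-signal peaks of the 108 listed col genes had a median IDR score of 78, which stands for a global rate of 0.649, and in 67 of them (62%) it was 100 or less. For other genes the median score was 87 and the share 56.5%.

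**Figure D3:**
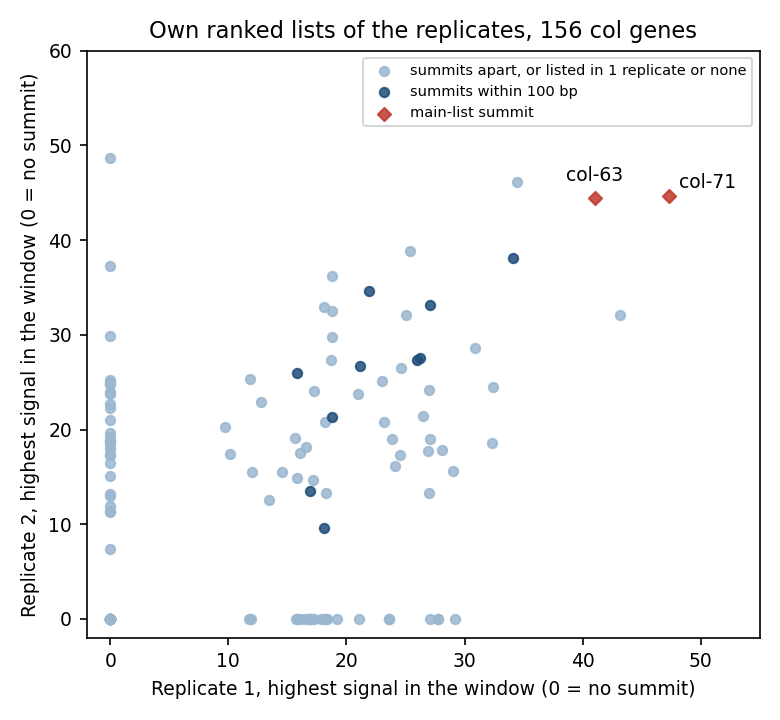
Highest signal in the window of each of the 156 col genes in the own ranked list of replicate 1 (horizontal axis) and replicate 2 (vertical axis), both in the caller's score, with 0 for no summit. Diamonds are col-71 and col-63, dark circles the other genes whose 2 summits lie within 100 bp by their distances from a start. Many genes lie on an axis, since 24 and 28 of the 156 were listed by 1 replicate alone. Of the 19817 other genes, not shown, 3633 and 3230 were.

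The animals were young adults, so collagens enriched in adults are given by gene. Beside the bound col-63, this list held 3 genes with col names. At col-19, the best known adult marker, neither the list from both replicates nor either replicate's own list held a summit in the window, and the nearest main-list summit was 44438 bp away. At col-62 the list from both was empty and replicate 2 alone gave 22.3. At col-7 the ranked signal was 22.9, with 27 in replicate 1 and no summit in replicate 2. The list of adult-enriched collagens also held rol-6, bli-1 and bli-2, which act in body shape and in the struts of the adult cuticle. Of its 7 genes 1 was bound (14.3%, interval 2.57 to 51.3%, against 3.15% of all genes) and 4 had a ranked-list summit (57.1%, interval 25 to 84.2%, against 75.1%). The median ranked signal was 15.9, and both intervals included the share of all genes.

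The 250 bases before the col-19 start are printed beside those of col-178, a gene with a ranked-list summit just downstream of its start, as an example of each case. They come from chrX:421457-421706 and chrX:11199205-11199454 (both plus strand), with motif matches in capitals.
col-19 upstream: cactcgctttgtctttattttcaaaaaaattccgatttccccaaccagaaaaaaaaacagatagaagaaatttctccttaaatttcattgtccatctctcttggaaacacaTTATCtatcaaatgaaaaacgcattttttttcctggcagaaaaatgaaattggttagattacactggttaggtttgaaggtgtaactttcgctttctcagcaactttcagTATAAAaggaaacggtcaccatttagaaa
col-178 upstream: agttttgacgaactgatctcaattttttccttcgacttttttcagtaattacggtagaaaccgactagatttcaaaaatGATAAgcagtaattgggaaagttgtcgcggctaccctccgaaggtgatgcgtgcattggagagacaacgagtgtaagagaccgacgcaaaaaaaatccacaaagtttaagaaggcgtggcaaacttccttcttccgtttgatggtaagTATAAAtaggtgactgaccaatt

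Both stretches held 1 GATAA match and 1 TATAAA match, the latter close to the start in each. Their GC content was 32.8% at col-19 and 40.4% at col-178.

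Other well-known members had middling or low ranked signals. The transmembrane collagen gene col-99 had 38.9, with 15.8 and 26 in the replicates. Its summit lay 552 bp upstream of the start, whereas the replicates' own highest summits lay 18 and 30 bp upstream. Among cuticle members col-17 had 30.8, col-12 had 30.2, col-14 had 28.4, col-13 had 19.5 and col-10 had 17.5. For each of these 5 at least 1 replicate listed no summit. Members without a summit in the ranked list from both replicates included col-3, col-19, col-37, col-41 and col-49, the 5 of lowest number. Of these, col-37 had a summit in replicate 1's own ranked list, with a signal of 27.7.

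The col genes lay on every nuclear chromosome, with 41 on IV, 31 on V, 27 on X, 24 on II, 21 on I and 12 on III. Median ranked signal of the col genes was below that of other genes on I (22.9 against 31.9), III (26.3 against 32.1), IV (23.2 against 28.5) and X (21.2 against 26.9). It was slightly above on II (30.4 against 29.9) and V (28.2 against 27.3). On II 21 of 24 col genes had a ranked-list summit (87.5%, interval 69 to 95.7%, against 77.2% of other genes there). On IV 24 of 41 had one (58.5%, interval 43.4 to 72.2%, against 72.1%). The shares were 61.9% on I (against 78.9%), 75% on III (against 79.3%), 77.4% on V (against 74%) and 63% on X (against 70.3%). Bound shares were 4.76% on I (against 4.62%) and 4.17% on II (against 3.82%). On III, IV, V and X no col gene was bound, against 1.29 to 4.98% of other genes. Another col start lay within 10000 bp for 50 members. Of these 0 were bound (interval up to 7.13%, against 3.15% of all genes). A ranked-list summit was found for 38 of the 50 (76%, interval 62.6 to 85.7%, against 75.1% of all genes). The median ranked signal of the 50 was 26.5. Of the other 106 col genes 2 were bound (1.89%, interval 0.519 to 6.62%). Both intervals of the bound share included that of all genes. Among the 106, 70 had a ranked-list summit (66%, interval 56.6 to 74.4%), with a median of 24.9. One peak was the highest for 2 members at once, col-159 and col-160, with a signal of 38.9.

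Summit positions are set beside those of other genes. The highest ranked-list summit lay upstream of the start in 89 of 108 listed col genes (82.4%) and in 80.8% of other genes, at a median of -364 bp and -347 bp. It lay in the gene's own coding exons in 15 col genes (13.9%, interval 8.6 to 21.7%) and in 13.2% of other genes. In any coding exon the shares were 26.9% and 26.1%.

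GC content moved with the ranked signal. The windows of col genes averaged 36.4% GC and those of other genes 35.2%. Across 10 bins of window GC content, the median ranked signal of other genes ran from 0 in the lowest bin to 39.6 in the highest, and their bound share from 0.15% to 8.06%. The median of the col genes was below that of the other genes in all bins but the lowest, where both were 0, with 8 to 25 col genes in a bin. When other genes were weighted to the GC bins of the col genes, 3.75% of them were bound, 78.1% had a ranked-list summit and the median ranked signal was 31. Similar copies of the window elsewhere in the genome were found for 8 col genes (5.13%) and for 12.1% of other genes. The part of these features in the result was not tested.

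**Figure D4:**
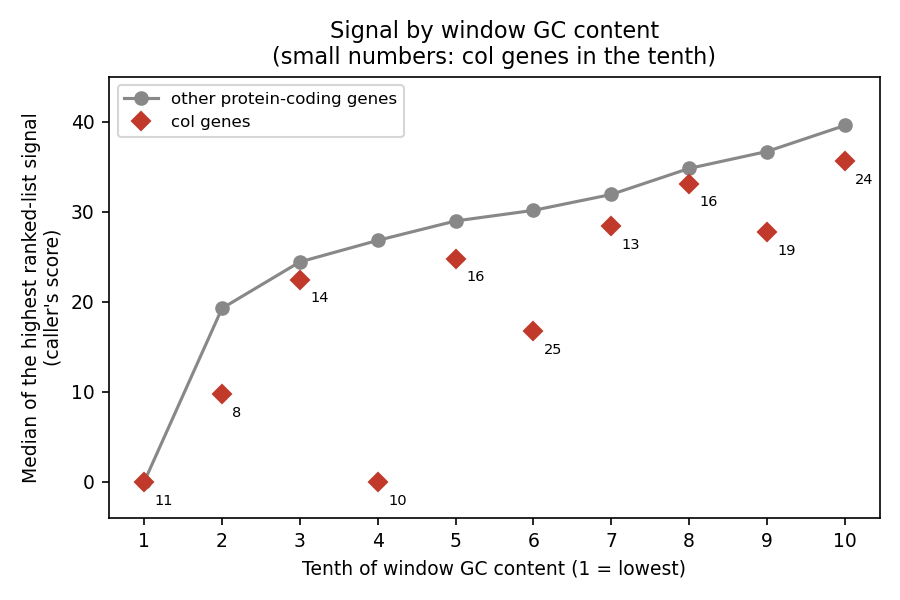
Median of the highest ranked-list signal (vertical axis, the caller's score) in 10 bins of window GC content (horizontal axis, lowest at the left) for the other protein-coding genes (circles) and the col genes (diamonds, with the number of col genes beside each). Signal of other genes grows from 0 to 39.6 with GC content, and the col medians lie at or below it.

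The promoters of the col genes were described by 5 motifs, searched on both strands from 250 bp before to 50 bp after the most upstream start, with overlapping matches of different motifs counted for each. A TATA-like element was searched as TATAAA. The core of sites for GATA factors, which include the epidermal regulators ELT-1 and ELT-3, was searched as GATAA. The AP-2 palindrome, known from AP-2 proteins of mammals, was searched as GCCNNNGGC and in a form with a spacer longer by a base. An E2F-like element was searched as TTTNNCGC. TATAAA occurred in 103 of 156 col promoters (66%, interval 58.3 to 73%), against 38% of all protein-coding promoters. On the gene's own strand and with its first base 20 to 50 bp before the start, it occurred in 62 col promoters (39.7%) and in 7.16% of all. GATAA occurred in 62.2% of col promoters (interval 54.4 to 69.4%) and 57.6% of all.

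The AP-2 palindromes were rare in both. GCCNNNGGC occurred in 3 col promoters (1.92%, interval 0.656 to 5.5%) against 1.28% of all, and the longer form in 6 (3.85%, interval 1.77 to 8.14%) against 1.96%. None of the 10 col genes of highest ranked signal held either form in the promoter stretch searched. Several of their summits, such as those of col-63 and col-34, lay outside that stretch. The count therefore does not describe the summits, and 10 promoters are too few for shares this low. TTTNNCGC occurred in 13.5% of col promoters (interval 8.98 to 19.7%) and 18.8% of all. The median ranked signal was 22.2 in the 103 col genes with TATAAA and 28.7 in the 53 without. In other genes it was 27.5 with TATAAA and 30.2 without. With GATAA the median was 28.4 in 97 col genes, and 23.2 in the 59 without it. In other genes it was 29 with GATAA and 29.5 without. The shares of col genes with a ranked-list summit were 71.1% with GATAA and 66.1% without. With TTTNNCGC the median was 28.2 in 21 col genes, and 24.2 in the 135 without it. In other genes it was 32.7 with TTTNNCGC and 28.5 without. The part of the motifs in these differences was not tested. A match is a description of the letters and does not show that a factor binds there.

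**Figure D5:**
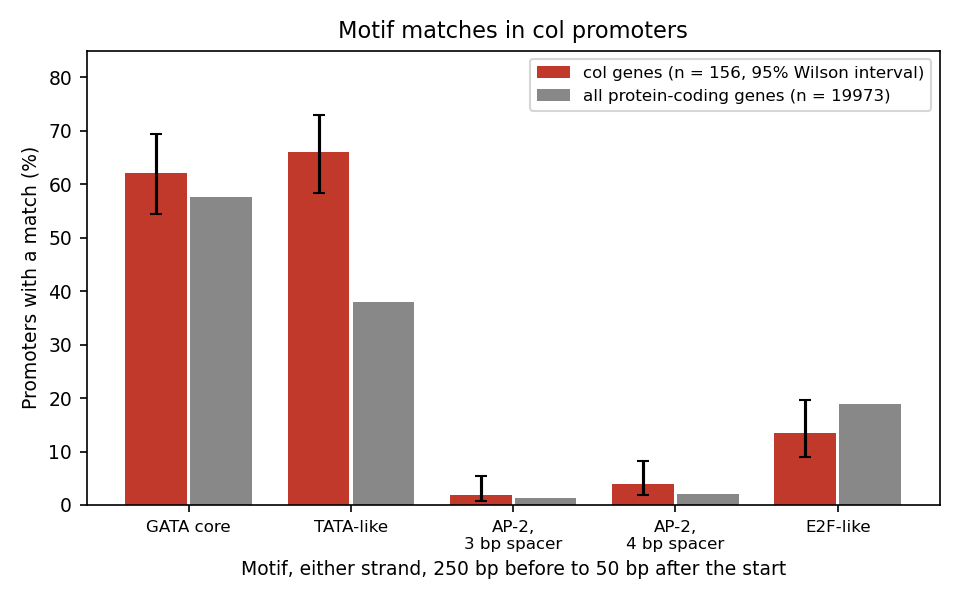
Share of promoters (vertical axis, %) with at least 1 match to each motif on either strand, for 156 col genes (with 95% Wilson intervals) and all 19973 protein-coding genes. The TATA-like element stands at 66% against 38%, and the GATA core at 62.2% against 57.6%.

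The rest of the cuticle pathway was described by lists of genes. Of 20 further named cuticle collagens, 19 matched the annotation and 0 were bound. These include dpy, sqt, rol, bli and lon genes, named for body shape or blisters, and 3 of them (bli-1, bli-2 and rol-6) are also among the adult-enriched collagens. Of the 19, 13 had a ranked-list summit (68.4%, interval 46 to 84.6%, against 75.1% of all genes), with a median ranked signal of 29.1 and the highest values at bli-1 (48.8) and dpy-17 (46.8). Of 22 genes for cuticle assembly and processing 0 were bound and 17 had a ranked-list summit (77.3%, interval 56.6 to 89.9%), at a median signal of 29.2. The strongest were pdi-2 (72.5, IDR score 827), a protein disulphide isomerase gene just short of the limit of 830, and dpy-11 (64.8, IDR score 642), which encodes a thioredoxin-like protein. The 13 regulators of cuticle and moulting also had 0 bound, and 12 had a ranked-list summit (92.3%, interval 66.7 to 98.6%, against 75.1% of all genes). Their median ranked signal was 50.9 and their median percentile 85.8. They held 3 ranked-list summits per gene against 1.46 over all genes, and the sizes of their windows were not compared. The highest were lin-14 (65.4) and nhr-23 (63.3), a nuclear receptor gene of the moulting cycle. Of the regulators 4 were in the 10% of highest signal (30.8%, interval 12.7 to 57.6%). The 3 basement membrane collagen genes had 0 bound, with 41.2 at let-2, 27.9 at cle-1 and no summit at emb-9. Lists of 3 to 22 genes leave wide intervals: 0 of 22 allows a share of up to 14.9%, against 3.15% of all genes.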

How the data were processed

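APTF-2 ChIP-seq was measured in 2 biological replicates of 1 group, taken from the labels. The authors' deposited README lists name ce11 as the assembly and say from which alignments (1 replicate's or both) each peak list came, ranked or thresholded by IDR. Caller and aligner (not given in the sources used here) stay unnamed. Signal and IDR values were deposited as scores, the −log10 of the global IDR in a column of its own, and the summit as an offset from the peak's start. Altogether 4 columns with signals of IDR inputs carry no replicate name and were not used; replicate values come from each replicate's own lists. Signals of different lists were not compared as levels. Depth is unknown.

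Peak ends fitted the chromosome lengths of WBcel235 on all 6 chromosomes. Genes came from Ensembl release 115 and sequence from RefSeq. Values were computed in Python 3.11.15 (pandas 2.3.3, SciPy 1.17.1). BLAST 2.17.0 counted similar copies of a window, meaning hits elsewhere over at least 300 bp with at least 90% identity. No test was run: the design has 1 group, and genes are not replicates. The assignment of summits to windows was checked on simulated summits. Members and lists were chosen with earlier results of these data known. Genes were named by rule. The rule took those with a summit in any thresholded list, the 10 of highest ranked signal and 10 known members. It also took the first 5 without a summit in the ranked list from both replicates, and the bound or 2 strongest genes of each list. Others (col-39, col-45, col-85, col-94, col-103, col-157, col-159, col-160 and those with summits in the same place) were chosen after their values were seen. A total of 14 alternatives was planned and 2 were added later.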

Additional observations from a re-analysis of the deposited data

How the results depend on the processing

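The bound share of col genes was below that of other genes in all 14 settings that gave both. The number of bound col genes was 1 in the other thresholded list, in windows of 500 bp upstream to 100 bp downstream and in windows overlapping no other. Other genes had 3.09%, 2.38% and 1.89% there. It was 4 with the nearest start and 5 at an IDR score of 540, against 3.16% and 5.31% of other genes. The number was 0 (0%) in windows of 250 bp upstream to 50 bp downstream and in the stronger 50% of peaks. It was also 0 (0%) without replicate 1 or without replicate 2. In these settings the share of other genes was lower too, at 1.5%, 1.93%, 1.71% and 1.47%. The share of col genes with a ranked-list summit was 50.6%, 86.5% and 34% in windows reaching 500, 2000 and 250 bp upstream. Other genes had 54.9%, 86.7% and 34% there. Col and other genes were thus nearly equal in the 2000 and 250 bp windows. The col share was 78.8% by any overlap of the peak, against 80.8% of other genes. With the nearest start it was 89.7% against 87.6%, and in the stronger 50% it was 48.1% against 55%. With 1 replicate left out it was from 49.4 to 51.9%, against 55.1 to 57.1%. The median ranked signal of col genes was 5.5, 33.9 and 0 in windows reaching 500, 2000 and 250 bp upstream. In other genes it was 14.5, 36.4 and 0 there. For col genes it was 40.7 with the nearest start (against 38) and 0 in the stronger 50% (against 29.2). With 1 replicate left out it was from 0 to 11.4 (against 13.1 to 14.4), on the scale of the other replicate's list. The median percentile was 22.5 in the stronger 50%, and from 21.5 to 47.8 with 1 replicate left out; where over 50% of members are at 0 it is the shared rank of the zeros. The number in the 10% of highest signal was 23 with the nearest start and from 7 to 14 with 1 replicate left out (14 without replicate 1). The cause of these shifts was not tested, apart from shorter windows holding fewer summits by construction. No paired analysis was possible because the design has 1 group. Counting 2 bound genes limits every bound share given here.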
